A study of Mus musculus with 12 samples.

Results

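Chromatin accessibility at 34 genes of fatty acid uptake and oxidation was followed in 2 fat depots of mice that lack BAF60a in adipocytes. BAF60a, the product of Smarcd1, belongs to the SWI/SNF complexes, which move nucleosomes. The 34 genes were a named list, chosen with earlier results of these data known. Every ATAC-seq peak whose assigned gene in the deposited tables was on that list was taken. This gave 174 of 58558 peaks in brown fat and 89 of 39558 peaks in inguinal fat. In brown fat 33 of the 34 genes had a peak, with Acsl3 as the exception. In inguinal fat 31 had a peak, and Cpt1b, Hadhb and Etfdh had none. Over both depots 17915 gene symbols had at least 1 peak.

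The mice were on a C57BL/6 background. Control mice (flox) carried the floxed BAF60a alleles without Cre, and knockout mice (AKO) carried the same alleles with Cre driven by the Adiponectin promoter, which is active in adipocytes, so the nuclei of vessels, immune cells and preadipocytes in these whole-tissue samples kept the gene. Brown fat was taken from 3 flox and 3 AKO mice, 1 mouse per sample. For inguinal fat, the pads of 6 mice per genotype, 6 to 8 months old and acclimated to cold (10 °C for 7 days), were pooled by genotype and divided into 3 aliquots. The 3 inguinal samples of a genotype are therefore technical replicates of 1 pool, and their spread does not include the difference between mice. No age or housing temperature was given for the brown fat samples in the sources used here.

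Brown fat burns fatty acids to make heat, and cold induces beige adipocytes of a similar kind in inguinal fat. Fatty acids enter the cell through CD36 and the Slc27a transporters, are carried by the Fabp binding proteins, and are trapped as acyl-CoA by the Acsl enzymes. CPT1 on the outer mitochondrial membrane, with CPT2 inside, moves the acyl groups into the mitochondrion, where dehydrogenases, hydratases and thiolases shorten them and the Etf proteins pass the electrons to the respiratory chain. Many of these genes are textbook targets of the PPAR nuclear receptors, which bind DNA together with RXR at a direct repeat of the hexamer AGGTCA with 1 base between.

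Values are normalized reads in a peak, that is, the reads divided by the size factor of the library, and peaks of the 2 depots were normalized separately. Total reads in peaks ranged from 6336670 in AKO replicate 2 to 27500738 in flox replicate 1 for brown fat and from 4066720 to 6691161 for inguinal fat. Along the first principal component of brown fat (PC1, 55.6% of the variance) the scores were -98.2, -41.8 and 14.6 in flox and -0.617, 112 and 13.5 in AKO. AKO replicate 2 and flox replicate 1, the libraries with the fewest and the most reads, lay at the 2 ends. The flox scores tended lower, so PC1 as a covariate is not independent of genotype. As a check of the labels, the Smarcd1 peak inside the gene (chr15:99704113-99704521) held 136, 201 and 185 normalized reads in the flox and 23.7, 57.9 and 26.9 in the AKO brown fat samples, while the peak at the Smarcd1 promoter overlapped between genotypes. Of these 2 peaks the inguinal table lists the promoter alone, which does not check the deletion there.

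In brown fat the peaks of these genes lay lower in AKO more often than peaks at large. All 3 AKO values were below all 3 flox values at 38 of the 174 peaks (21.8%, in 18 genes), against 8.84% of all 58558 peaks. The reverse held at 7 peaks (4.02%, in 6 genes), against 8.77% of all peaks. These counts use the normalized reads without the PC1 covariate, which the fold changes include. Peaks of these genes also held more reads than peaks at large, with a median of the mean normalized reads of 210 against 125. The part of this difference in the counts was not tested. Of the 174 peaks 114 had a log2 fold change (AKO over flox) below 0, and the median was -0.11, against 0.01 for all peaks. The median was -0.18 without AKO replicate 1, -0.06 without AKO replicate 3 and -0.18 without the PC1 covariate. Peaks of the same gene lie close together and are not independent, and the 2 genes with the most peaks were Acsl1 with 22 and Cd36 with 21. Without these 2, 26 of 131 peaks lay lower in AKO and 6 higher, with a median of -0.06.

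Inguinal fat had more peaks apart with AKO higher than lower. Groups did not overlap with AKO higher at 19 of 89 peaks (21.3%, in 14 genes), against 10.6% of all 39558 peaks. AKO was lower at 9 peaks (10.1%, in 7 genes), against 10.3% of all peaks. The median log2 fold change was 0.04, against -0.000888 for all peaks, and 41 of the 89 values were below 0. The sign of this small median was not stable, since it was -0.02 without flox replicate 2 and 0.01 without flox replicate 1.

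These are descriptions of direction. The counts without overlap by gene, role and marker list further on stand against the same shares of all peaks. Those are 8.84% lower and 8.77% higher in brown fat, and 10.3% and 10.6% in inguinal fat. With limma, fitted over all peaks of a depot and adjusted for PC1 in brown fat only, no peak of any gene was called at an adjusted p under 0.1 in either depot (0% of all peaks, lower or higher). Even the Smarcd1 peak inside the gene, with a brown fat log2 fold change of -2.98, had a limma adjusted p of 0.269 (DESeq2 adjusted p 4.04e-11). A missing limma call therefore does not mark a peak as unchanged. The smallest adjusted p (limma, Benjamini-Hochberg over all peaks) among the 34 genes was 0.431 in brown fat and 0.151 in inguinal fat. At an unadjusted limma p under 0.05, 19 of the 174 brown fat peaks were lower and 2 higher, against 5.59% and 3.46% of all peaks, and in inguinal fat 5 of 89 were lower and 10 higher, against 7.42% and 7.61%. DESeq2 on the whole reads recovered from the tables called 2 brown fat peaks lower, both of Cpt1b, and 1 higher, of Acot11, against 0.217% and 0.0803% of all peaks. It called 1 inguinal peak lower, of Fabp4, and none higher (edgeR 2, unadjusted limma 10), against 0.569% and 0.493%. edgeR on the same reads called 1 brown fat peak lower, of Cpt1b, and 0 higher (unadjusted limma 2, DESeq2 1), against 0.114% and 0.029% of all peaks, and 2 inguinal peaks lower and 2 higher, against 2.52% and 2.15%. DESeq2 without the PC1 covariate called 10 brown fat peaks lower, 5 of them of Acsl1, and 1 higher, against 0.517% and 0.512%. An exact permutation test of 3 samples against 3 cannot give a two-sided p below 0.1.

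**Figure D1:**
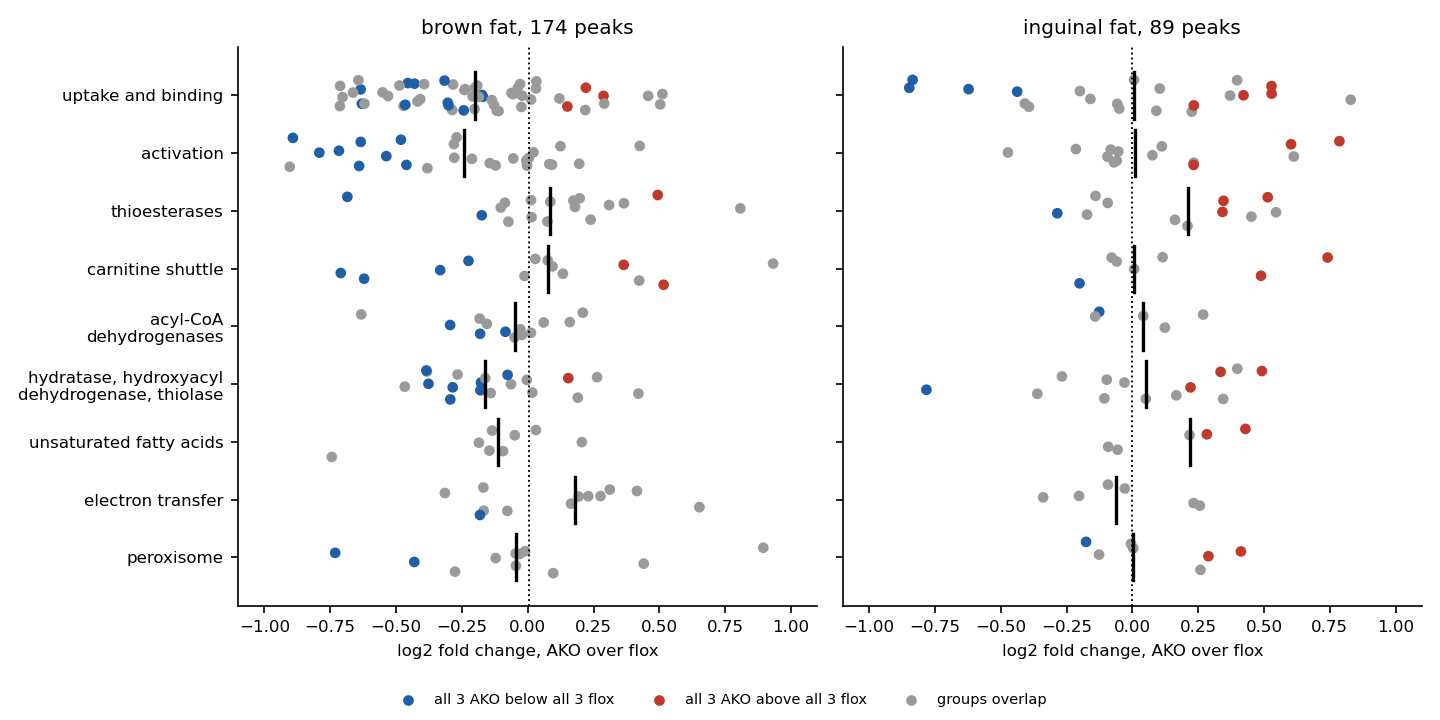
Each point is a peak of the 34 genes, placed by its log2 fold change (AKO over flox, x axis, limma) and by the role of its gene (y axis), for brown fat (left, 174 peaks) and inguinal fat (right, 89 peaks). Black bars are the medians of a role, the dotted line is the median of all peaks of the depot, and blue and red mark the 38 and 9 peaks where AKO lay below, and the 7 and 19 peaks where it lay above, every flox sample.

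Whole tissue was assayed, so fewer cells of a type and less accessibility per cell cannot be told apart. Markers of the fat cells themselves were also lower in brown fat of AKO mice. The peaks of 6 brown adipocyte genes (Ucp1, Cidea, Dio2, Zic1, Ebf2 and Prdm16) summed to 16693 to 20843 normalized reads in flox and 11525 to 13032 in AKO, and 22 of their 50 peaks were lower in AKO without overlap, with 1 higher. For 6 general adipocyte genes (Adipoq, Plin1, Lep, Cidec, Pparg and Lipe) the sums were 18383 to 20193 in flox and 13163 to 17824 in AKO, with 16 of 38 peaks lower and 3 higher, against 8.84% and 8.77% of all brown fat peaks. Their part in the values of the fatty acid genes was not tested. Endothelial sums overlapped (2929 to 3492 in flox, 3241 to 3677 in AKO, 6 of 6 genes with a peak), fibroblast and preadipocyte sums were 3308 to 3425 in flox and 3255 to 3281 in AKO, and macrophage, lymphocyte and epithelial sums overlapped (2, 1 and 3 of 6 genes with a peak). In inguinal fat the brown adipocyte sums overlapped between genotypes (1589 to 1697 in flox, 1660 to 1754 in AKO), with 2 of 22 peaks lower and 4 higher, and so did the general adipocyte sums (3009 to 3647 in flox, 3076 to 3462 in AKO) and those of the endothelial, macrophage, lymphocyte, fibroblast and epithelial lists.

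Matches to the PPAR-type repeat (AGGTCANAGGTCA, either strand) were searched in every peak on the mm10 (GRCm38) genome. With up to 3 mismatches it was found in 121 of the 174 brown fat peaks (69.5%) and in 49.8% of all peaks, and in 54 of the 89 inguinal peaks (60.7%) and 42.1% of all. Wider peaks have more places for a match, and the median peak of these genes was 690.5 bp wide in brown fat against 482 bp for all peaks, and 452 against 432 bp in inguinal fat. With at most 1 mismatch it was in 7 of 174 (4.02%) against 1.87% of all brown fat peaks and in 3 of 89 (3.37%) against 1.31% of all inguinal peaks. A match is a description of letters, and binding was not measured here.

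The 7 brown fat peaks with at most 1 mismatch belonged to Acads, Acadvl, Etfdh, Hadh, Hadha (2 peaks) and Slc27a2, and 4 of them cover a start site. The stretches below are shown because they hold these closest matches, or the best match in the peaks of Cpt1b, Acsl1, Acadm, Fabp3 and Fabp4 whose values are given further on. They are read from the GRCm38 genome, 5′ to 3′ on the strand of the match, with the 13 bases of the match in capitals. The Acsl1, Fabp3 and Fabp4 stretches come from inguinal peaks and the others from brown fat peaks. The Acsl1 match lies outside the brown fat peak that overlaps its inguinal peak.
Acads, past the start site (chr5:115118860-115118940, plus strand): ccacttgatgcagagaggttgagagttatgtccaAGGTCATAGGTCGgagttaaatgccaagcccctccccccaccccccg
Etfdh, past the start site (chr3:79628261-79628341, minus strand): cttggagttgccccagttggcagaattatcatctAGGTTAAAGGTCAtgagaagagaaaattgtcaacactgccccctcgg
Hadh, past the start site (chr3:131271337-131271417, plus strand): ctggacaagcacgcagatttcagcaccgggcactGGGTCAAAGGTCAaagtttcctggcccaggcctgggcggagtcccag
Hadha intron (chr5:30136052-30136132, plus strand): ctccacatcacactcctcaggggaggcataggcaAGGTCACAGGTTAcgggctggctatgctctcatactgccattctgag
Hadha intron (chr5:30148617-30148697, minus strand): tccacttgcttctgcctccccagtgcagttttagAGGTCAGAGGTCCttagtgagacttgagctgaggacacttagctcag
Slc27a2 intron (chr2:126555549-126555629, minus strand): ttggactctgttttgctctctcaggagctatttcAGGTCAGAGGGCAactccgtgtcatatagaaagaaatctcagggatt
Cpt1b promoter (chr15:89426063-89426143, plus strand, 2 mismatches): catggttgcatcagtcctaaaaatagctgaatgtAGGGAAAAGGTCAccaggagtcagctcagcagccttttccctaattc
Acadm promoter (chr3:153944935-153945015, minus strand, 2 mismatches): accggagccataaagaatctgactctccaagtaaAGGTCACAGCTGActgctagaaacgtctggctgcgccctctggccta
Acsl1 intron (chr8:46503470-46503550, minus strand, 2 mismatches): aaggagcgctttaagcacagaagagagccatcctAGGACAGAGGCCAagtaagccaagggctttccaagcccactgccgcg
Fabp3 upstream (chr4:130306800-130306880, minus strand, 3 mismatches): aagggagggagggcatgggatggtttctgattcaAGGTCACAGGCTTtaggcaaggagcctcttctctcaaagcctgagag
Fabp4 upstream (chr3:10213897-10213977, plus strand, 3 mismatches): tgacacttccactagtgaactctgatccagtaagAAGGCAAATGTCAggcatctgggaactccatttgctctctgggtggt
Fabp4 far upstream (chr3:10246825-10246875, plus strand, 2 mismatches): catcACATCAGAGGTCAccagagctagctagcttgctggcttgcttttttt
The Acadvl match, AGGTCAGTGGTCA, is given without its surroundings, which overlap an annotated exon.

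The carnitine shuttle held both brown fat peaks that DESeq2 called lower. Their gene, Cpt1b, encodes the muscle-type CPT1, which is also the main form in brown fat. Its promoter peak (chr15:89425319-89427004, over the start site) held 1842, 1703 and 1588 normalized reads in the 3 flox samples and 1075, 919 and 1008 in the 3 AKO samples. Every AKO library was well below every flox library, and the means were 1711 ± 127 and 1001 ± 78.2 (SD, n = 3 each). The log2 fold change was -0.62 ± 0.17 (SE) with a limma adjusted p of 0.463, a DESeq2 adjusted p of 0.00487 and an edgeR adjusted p of 0.0695.

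The second Cpt1b peak (chr15:89418016-89419432), centred 7139 bp past the start site over introns and annotated exon sequence, showed the same order. It held 793, 646 and 708 in flox and 454, 437 and 385 in AKO, with no overlap. The log2 fold change was -0.71 ± 0.20, with adjusted p of 0.469 by limma and 0.0495 by DESeq2. The best repeat match in this peak is GGGACAGAGGTCA, with 2 mismatches, given without its surroundings because they overlap an exon. Skeletal muscle also uses Cpt1b, and of 8 muscle markers (Ckm, Acta1, Myh1, Myh4, Actn3, Mylpf, Tnnt3 and Pvalb) 2 had a peak in brown fat, Acta1 and Myh4, with sums of 245 to 273 in flox and 243 to 363 in AKO. Both Cpt1b peaks also overlap Gm44502, an annotated gene model, and reads cannot be divided between the 2.

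Cpt1a encodes the liver-type form of the same enzyme. Its promoter peak held 411, 460 and 455 in flox against 424, 504 and 500 in AKO brown fat, and the groups overlapped. Of its 5 brown fat peaks 1 was below 0 in log2 fold change and 1, at 9569 bp upstream, was higher in AKO without overlap. For Cpt2, the inner membrane partner, an intron peak held 725, 622 and 587 in flox and 472, 352 and 453 in AKO, without overlap, while the promoter overlapped. Of the 4 brown fat peaks of Cpt2, 1 was lower and 1 higher without overlap, and 3 had a log2 fold change above 0, up to 0.93. Their median was 0.27 with the PC1 covariate and -0.11 without it. Crat, which makes acetylcarnitine, had 1 of 2 brown fat peaks lower without overlap, at a start site that it shares with Ptpa. Over the 13 brown fat peaks of the shuttle, 4 were lower and 2 higher without overlap, and the median was 0.08 with the PC1 covariate and -0.16 without it, when 8 of the 13 were below 0.

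The shuttle in inguinal fat had 7 peaks, of which 1 was lower and 2 higher without overlap. The higher ones were an intron peak of Cpt1a (18.5, 37.8 and 34.4 in flox, 55.3, 52.5 and 40.6 in AKO, log2 fold change 0.74 ± 0.28, limma adjusted p 0.276) and an intron peak of Crat (74.8, 57.8 and 77.5 in flox, 103, 110 and 83.4 in AKO, 0.49 ± 0.17, limma adjusted p 0.263). Cpt1b had no peak there.

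**Figure D2:**
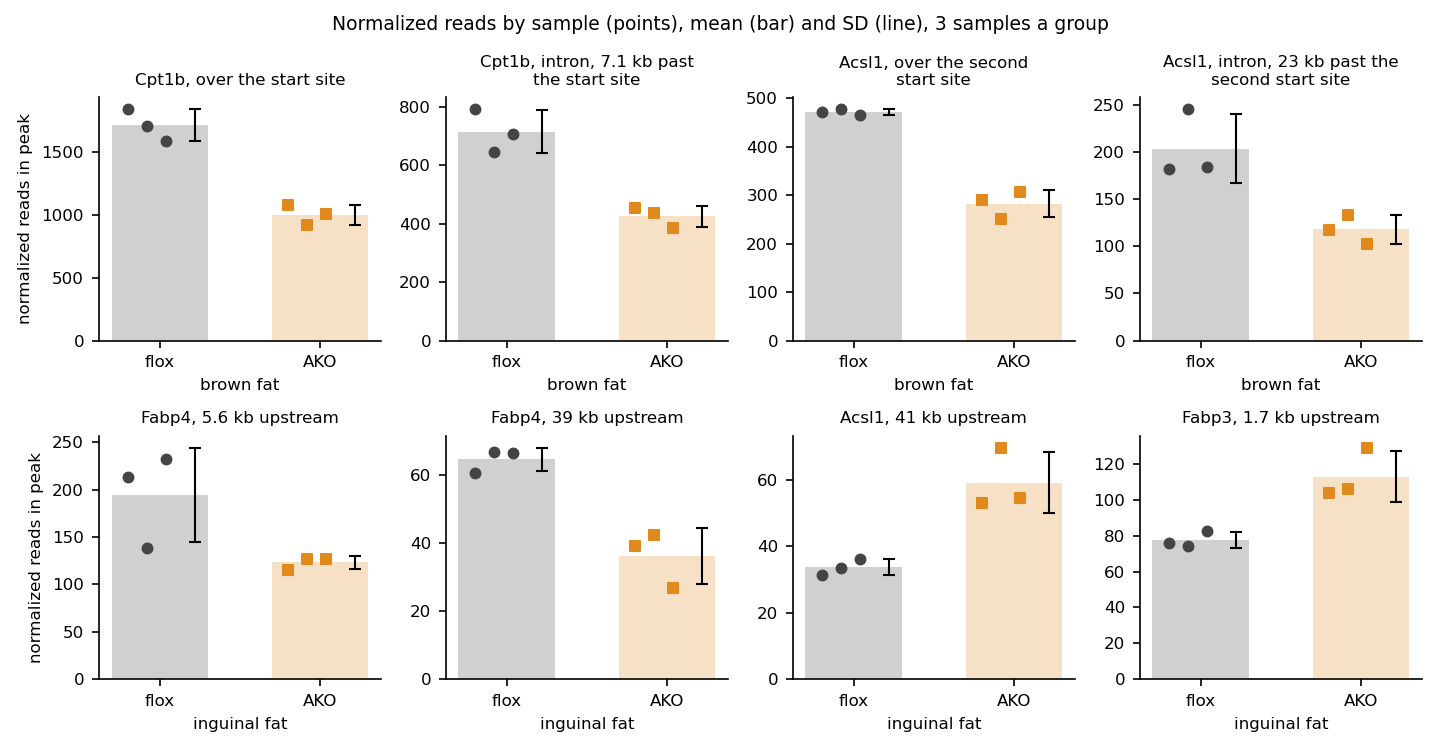
Normalized reads (y axis, from 0) in 8 peaks, with flox samples as dark circles, AKO samples as orange squares, bars for the mean and lines for the SD (n = 3 a group). The top row is brown fat, where the 4 Cpt1b and Acsl1 peaks lie lower in all 3 AKO samples, and the bottom row is inguinal fat, where the 2 Fabp4 peaks lie lower and the Acsl1 and Fabp3 peaks higher in all 3 AKO samples.

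Among the genes of fatty acid activation, Acsl1 had the most peaks and a regional pattern. Acsl1 is the main long-chain acyl-CoA synthetase of fat cells. Of its 22 brown fat peaks 8 were lower in AKO without overlap, none was higher, and 16 had a log2 fold change below 0. The peak over the main start site (chr8:46469970-46471728) held 4028, 3658 and 3189 in flox and 3468, 2165 and 3301 in AKO, and the groups overlapped (log2 fold change 0.08 ± 0.18).

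Farther into the gene the groups came apart. A second annotated start site lies 19.9 kb past the main one, and the peak over it (chr8:46490793-46491143) held 472, 478 and 466 in flox and 291, 251 and 306 in AKO. The flox libraries were nearly level, at 472 ± 6.21, and the AKO libraries lay at 283 ± 28.4 (SD, n = 3 each), with a log2 fold change of -0.63 ± 0.18 and an adjusted p of 0.469 by limma and 0.151 by DESeq2. From this peak to 44.5 kb past the main start site, all 6 consecutive peaks were lower in AKO without overlap, with log2 fold changes from -0.54 to -0.89. None of the 6 peaks from the main start site to 17.2 kb was, with log2 fold changes from -0.38 to 0.12. The next peak beyond, at 49.7 kb, overlapped between groups (-0.21 ± 0.25).

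The lowest of the 6 (chr8:46515363-46515703, intron) held 181, 245 and 184 in flox and 118, 133 and 103 in AKO (log2 fold change -0.89 ± 0.24, limma adjusted p 0.444). A further intron peak (chr8:46497048-46497248) held 162, 149 and 190 in flox and 85.6, 124 and 127 in AKO (-0.79 ± 0.24, limma adjusted p 0.480). Another of the 6, at chr8:46508948-46509758 held 704, 653 and 682 in flox and 455, 450 and 470 in AKO, again with no overlap. The other 2 lower peaks lay 84.3 and 66.5 kb upstream, where the more distant held 1410, 1462 and 1137 in flox and 1030, 707 and 711 in AKO. That peak covers the start site of Gm45253.

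**Figure D3:**
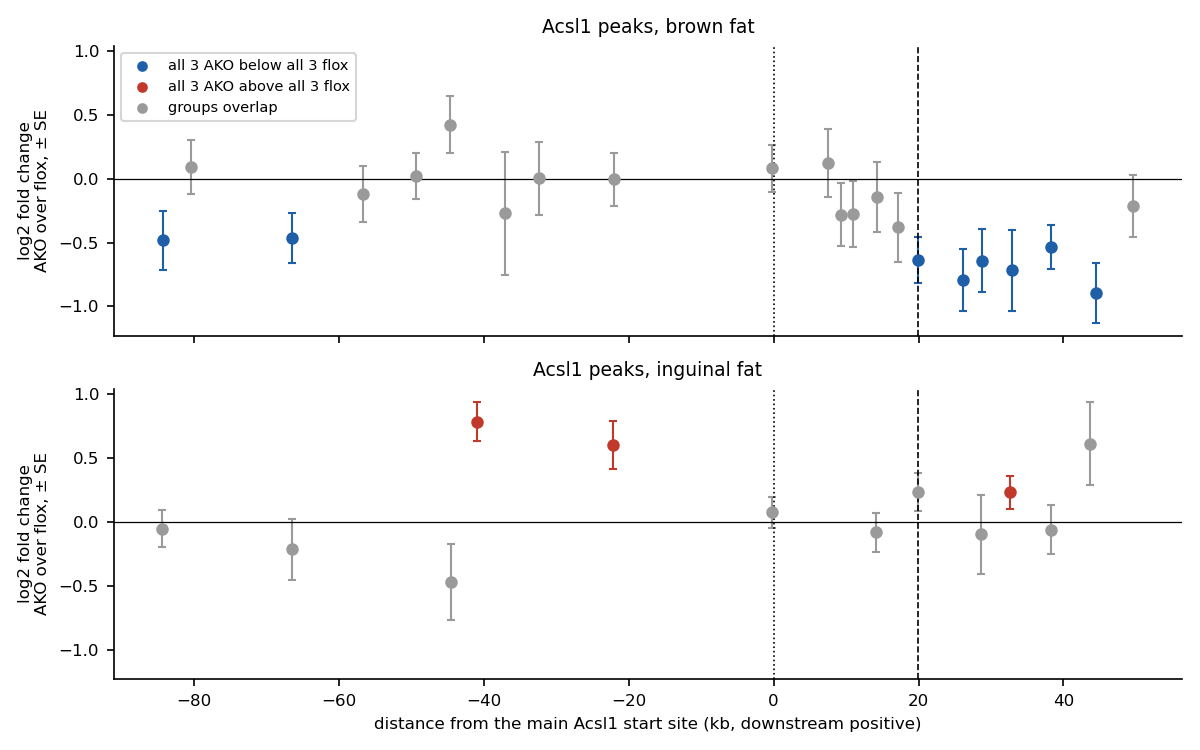
Log2 fold change with SE (y axis, AKO over flox, limma) of each Acsl1 peak against its distance from the main start site in kb (x axis), for brown fat (top, 22 peaks) and inguinal fat (bottom, 12 peaks). The dotted line is the main start site and the dashed line the second start site, and the 6 brown fat peaks from 19.9 to 44.5 kb are all blue, with all 3 AKO samples below all 3 flox samples.

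The 12 inguinal Acsl1 peaks had another shape, with 3 higher in AKO and none lower without overlap. A peak 40.9 kb upstream (chr8:46429970-46430241) held 31.4, 33.4 and 36.2 in flox and 53.0, 69.6 and 54.5 in AKO. Every AKO aliquot was above every flox aliquot, and this peak had the smallest limma p of the inguinal peaks of these genes (log2 fold change 0.79 ± 0.15, unadjusted p 0.00118, adjusted p 0.151; edgeR adjusted p 0.0689). At 22.2 kb upstream (chr8:46448724-46448973) the values were 22.8, 32.2 and 25.0 in flox and 33.4, 44.5 and 44.9 in AKO (0.60 ± 0.19, limma adjusted p 0.218). The promoter (1161, 1044 and 1124 in flox, 1156, 1185 and 1166 in AKO) and the second start site overlapped between genotypes.

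The remaining synthetases had few peaks. Acsl5, which is abundant in intestine and fat, had 4 peaks in brown fat, all overlapping between groups. The peak 2947 bp upstream of Acsl5 (chr19:55250118-55250727) held 146, 183 and 199 in flox and 107, 174 and 108 in AKO. It had the smallest limma p among brown fat peaks of these genes (log2 fold change -0.90 ± 0.18, unadjusted p 0.00164, adjusted p 0.431), although AKO replicate 2 lay within the flox range and the value without the PC1 covariate was -0.46. Acsl3 had a single inguinal peak at its start site, shared with Utp14b, with overlapping groups, and the same was true of the single inguinal Acsl5 peak.

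Uptake and binding genes had 55 brown fat peaks, of which 11 were lower and 3 higher without overlap, with a median log2 fold change of -0.20. Cd36, the fatty acid translocase, had 21 of them, 17 below 0, and 4 lower and 1 higher without overlap. Its strongest start site peak held 869, 959 and 823 in flox and 842, 597 and 700 in AKO, with overlap. An intron peak 2635 bp past a start site (chr5:17832473-17833649) held 239, 281 and 305 in flox and 202, 176 and 177 in AKO, without overlap (log2 fold change -0.63 ± 0.20, limma adjusted p 0.489). The peak that was higher in AKO was the narrowest, 26 bp wide, with 2.61 to 34.8 normalized reads.

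Slc27a2 encodes a very long-chain acyl-CoA synthetase and transporter that is best known from liver and kidney. All 8 of its brown fat peaks had a log2 fold change below 0, and 2 were lower without overlap. An intron peak that carries a repeat match with 1 mismatch (chr2:126555514-126555926, shown above) held 314, 312 and 242 in flox and 204, 104 and 157 in AKO. All AKO libraries were lower, with a log2 fold change of -0.47 ± 0.22 (limma adjusted p 0.584) and of -0.93 without the PC1 covariate. The peak with the smallest limma p among the uptake genes, also of Slc27a2, 26696 bp upstream and inside Gm26697 (chr2:126525541-126525881), held 76.3, 99.0 and 97.0 in flox and 59.8, 77.3 and 70.0 in AKO, where AKO replicate 2 just overlapped the lowest flox library (-0.62 ± 0.19, limma adjusted p 0.481). Slc27a1, the fatty acid transporter of muscle and fat, had 2 peaks in each depot, and none was apart.

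Fabp4, the lipid-binding protein that makes up much of the cytosolic protein of adipocytes, had 11 brown fat peaks, 9 of them below 0. The promoter held 750, 919 and 735 in flox and 771, 400 and 614 in AKO, with overlap. The peak 5563 bp upstream (chr3:10213690-10214589), in the region of the long-studied fat cell enhancer of this gene, held 846, 918 and 807 in flox and 653, 429 and 536 in AKO. All AKO libraries were lower, with a log2 fold change of -0.46 ± 0.21, a limma adjusted p of 0.576 and a value of -0.69 without the PC1 covariate.

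The same Fabp4 region was lower in AKO inguinal fat. The peak there (chr3:10213690-10214574) held 213, 138 and 232 in flox and 115, 127 and 127 in AKO. The groups did not overlap, but flox replicate 2 lay close to the AKO aliquots, and the log2 fold change was -0.62 ± 0.21 with adjusted p of 0.242 by limma, 0.0606 by DESeq2 and 0.00597 by edgeR. A peak 38551 bp upstream, inside Fabp12 (chr3:10246825-10247429), held 60.6, 66.7 and 66.3 in flox and 39.2, 42.2 and 26.7 in AKO, with a wide gap between the genotypes. Its log2 fold change was -0.85 ± 0.19, with adjusted p of 0.152 by limma, 0.148 by DESeq2 and 0.0499 by edgeR. The Fabp4 promoter overlapped there too.

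Fabp5, a related binding protein found in skin, fat and macrophages, went the other way at its promoter in both depots. Brown fat values were 303, 305 and 330 in flox and 363, 336 and 382 in AKO, and inguinal values were 178, 212 and 215 in flox and 227, 237 and 246 in AKO. Neither pair of groups overlapped, with log2 fold changes of 0.22 ± 0.18 and 0.23 ± 0.14 (limma adjusted p 0.745 and 0.465). Fabp3, the heart and muscle form that brown fat also expresses, had 7 brown fat peaks, 3 lower without overlap and none higher.

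The Fabp3 peak 1628 bp upstream (chr4:130306681-130307254) held 866, 746 and 755 in flox against 653, 527 and 595 in AKO brown fat (log2 fold change -0.24 ± 0.18, limma adjusted p 0.711). In inguinal fat the overlapping peak (chr4:130306730-130307153) held 76.3, 74.5 and 82.6 in flox and 104, 106 and 129 in AKO (0.53 ± 0.14, limma adjusted p 0.186, DESeq2 adjusted p 0.211 and edgeR adjusted p 0.0890). The groups were apart in both depots, in opposite directions. In inguinal fat 4 of the 8 muscle markers had a peak, and their sums were 911 to 1076 in flox and 863 to 903 in AKO, lower in every AKO aliquot.

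Further inguinal peaks of uptake genes were lower at Cd36. A peak 82002 bp downstream of a Cd36 start site (chr5:17753484-17753905) held 56.3, 46.7 and 48.2 in flox and 42.6, 34.3 and 34.2 in AKO (log2 fold change -0.44 ± 0.15, limma adjusted p 0.253). Another at chr5:17775330-17775553 held 35.6, 34.5 and 26.7 in flox and 12.7, 17.1 and 24.6 in AKO (-0.83 ± 0.24, limma adjusted p 0.203). Both were lower in every AKO aliquot, and a neighboring peak at chr5:17776713-17776982 was higher in every AKO aliquot. Over the 21 inguinal uptake peaks 4 were lower and 4 higher without overlap.

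Thioesterases, which release fatty acids from acyl-CoA, had 17 brown fat peaks with a median of 0.09, and of 0.10 without the PC1 covariate. Without overlap 2 were lower, of Acot1 and Acot2, and 1 was higher, of Acot11. That Acot11 peak lay 23023 bp upstream (chr4:106827761-106828281, log2 fold change 0.49). Acot1 had 6 brown fat peaks, 3 below 0 and 3 above, with log2 fold changes from -0.68 to 0.24. Acot11, the thioesterase that cold induces in brown fat, had a peak 43288 bp upstream (chr4:106847595-106848978, over the start site of Gm12746) that held 936, 543 and 554 in flox and 1126, 547 and 722 in AKO. DESeq2 called it higher (adjusted p 0.0432), but the groups overlapped, the limma adjusted p was 0.496, and the log2 fold change of 0.81 ± 0.27 was 0.22 without the PC1 covariate. Acot2, a mitochondrial thioesterase, had a promoter peak with 483, 489 and 494 in flox against 434, 423 and 437 in AKO brown fat. In inguinal fat it held 192, 166 and 175 in flox and 161, 135 and 141 in AKO. Both pairs were apart by small amounts (log2 fold changes -0.17 ± 0.17 and -0.29 ± 0.14).

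Acot1, the cytosolic thioesterase next to Acot2, had an inguinal intron peak (chr12:84011545-84011915) with 62.0, 56.7 and 51.6 in flox and 78.4, 89.0 and 77.0 in AKO. All AKO aliquots were higher (log2 fold change 0.51 ± 0.14, limma adjusted p 0.186). Acot1 and Acot2 are close paralogs. The authors kept only reads that passed a mapping quality cutoff, so reads that fit both genes may be missing. How many were lost is not known, so the values of both genes are uncertain. Over the 11 inguinal thioesterase peaks 3 were higher and 1 lower without overlap.

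The acyl-CoA dehydrogenases catalyze the opening step of β-oxidation and differ in chain length preference. The Acadm (medium-chain) promoter (chr3:153943964-153945103) held 2215, 2048 and 1925 in flox against 1831, 1203 and 1738 in AKO brown fat, without overlap. Its log2 fold change was -0.08 ± 0.19 (limma adjusted p 0.915) with the PC1 covariate and -0.40 without it. The Acadl (long-chain) promoter (chr1:66861218-66863575) held 1604, 1378 and 1141 in flox and 1207, 819 and 1102 in AKO, with overlap (-0.02 ± 0.17, limma adjusted p 0.978, and -0.40 without the PC1 covariate). In inguinal fat Acadm held 640, 634 and 623 in flox and 568, 563 and 608 in AKO, all AKO aliquots being slightly lower (-0.13 ± 0.12, limma adjusted p 0.666).

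Acadl in inguinal fat held 229, 322 and 251 in flox and 337, 298 and 324 in AKO, with overlap (0.27 ± 0.16, limma adjusted p 0.486). The dehydrogenase peak with the smallest p in brown fat, 25037 bp upstream of Acadl, held 41.3, 66.5 and 78.9 in flox and 41.2, 102 and 65.2 in AKO, where AKO spanned the whole flox range and the log2 fold change went from -0.63 ± 0.24 with to 0.11 without the PC1 covariate. Acadvl (very long-chain) and Acads (short-chain) promoters overlapped between groups in both depots. Over 13 brown fat peaks 3 were lower and none higher without overlap (unadjusted limma p under 0.05: 1 lower, 0 higher).

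The hydratase, hydroxyacyl dehydrogenase and thiolase steps had 19 brown fat peaks, 7 lower and 1 higher without overlap. Hadha and Hadhb encode the α and β subunits of the mitochondrial trifunctional protein and share a promoter. That peak (chr5:30154538-30155656) held 1171, 1014 and 868 in flox against 757, 508 and 608 in AKO brown fat, with no overlap, a log2 fold change of -0.38 ± 0.18 (limma adjusted p 0.596) and -0.71 without the PC1 covariate. The shared promoter overlapped in inguinal fat. Hadhb had a single peak of its own, with 272, 251 and 239 in flox and 239, 236 and 222 in AKO.

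An intron peak of Hadha that holds the repeat with 1 mismatch (chr5:30135448-30136406, shown above) carried 1279, 1280 and 1323 in flox against 1120, 798 and 1122 in AKO brown fat. The overlapping inguinal peak (chr5:30135735-30136220) carried 133, 137 and 132 in flox and 160, 169 and 140 in AKO. AKO was below in brown fat (log2 fold change -0.18 ± 0.21) and above in inguinal fat (0.22 ± 0.13), with limma adjusted p of 0.820 and 0.476. The thiolase Acaa2 held 2014, 1738 and 1714 in flox and 1490, 1031 and 1455 in AKO at its brown fat promoter, without overlap (-0.18 ± 0.18, limma adjusted p 0.798, and -0.47 without the PC1 covariate). At the inguinal promoter it held 519, 505 and 507 in flox and 523, 464 and 514 in AKO, with overlap (-0.03 ± 0.12).

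Hadh, the short-chain hydroxyacyl dehydrogenase, had 9 brown fat peaks, with the promoter (798, 848 and 783 in flox, 633, 533 and 666 in AKO) and 1 intron peak lower without overlap. Another 1 of the 9 was higher without overlap, and 4 had a log2 fold change above 0. The brown fat peak of this role with the smallest p (chr3:131237810-131238624) held 127, 171 and 208 in flox and 129, 228 and 171 in AKO and overlapped (log2 fold change -0.47 ± 0.19, 0.05 without the PC1 covariate). In inguinal fat a peak assigned to Hadh that lies inside Lef1 (chr3:131208334-131208733) held 31.4, 40.0 and 38.7 in flox and 27.7, 16.0 and 20.3 in AKO, all AKO aliquots being lower (-0.78 ± 0.21, limma adjusted p 0.189). A peak 2233 bp upstream of Hadh held 74.8, 111 and 74.9 in flox and 112, 122 and 128 in AKO, all AKO aliquots being higher (0.49 ± 0.19, limma adjusted p 0.284).

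Decr1, Eci1 and Eci2 handle the double bonds of unsaturated fatty acids. None of their 8 brown fat peaks was apart. The peak with the smallest p, 93466 bp upstream of Eci2 (chr13:35087308-35088187), held 118, 160 and 133 in flox and 95.9, 174 and 82.5 in AKO, and AKO spanned the flox range (log2 fold change -0.74 ± 0.29, -0.29 without the PC1 covariate). In inguinal fat an Eci1 intron peak (chr17:24429450-24429916) held 94.1, 85.6 and 86.9 in flox and 106, 128 and 127 in AKO, and the Decr1 promoter held 179, 191 and 145 in flox and 191, 210 and 222 in AKO. Both were higher in every AKO aliquot (0.43 ± 0.14 and 0.28 ± 0.15, limma adjusted p 0.227 and 0.434).

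Groups overlapped at most peaks of the electron transfer genes. Etfa, Etfb and Etfdh carry electrons from the dehydrogenases to ubiquinone. Of their 12 brown fat peaks 1 was lower without overlap, the Etfb promoter, with 1028, 992 and 929 in flox and 762, 558 and 868 in AKO, at a start site shared with Gm45233. The peak with the smallest p lay 60571 bp downstream of the Etfa start site (chr9:55451561-55451783) and held 134, 67.2 and 89.3 in flox and 157, 90.8 and 95.0 in AKO, with overlap (log2 fold change 0.65 ± 0.34, 0.25 without the PC1 covariate and 0.33 without AKO replicate 1). Over the 12 peaks the median was 0.18 with the PC1 covariate and -0.17 without it. None of the 6 inguinal peaks was apart, and none had an unadjusted limma p under 0.05.

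The peroxisomal enzymes among the members shorten very long chains. Pex11a, a membrane protein of peroxisome division and a known PPAR target, had 3 brown fat peaks, 2 of them lower without overlap. The intron peak 3956 bp past the start site (chr7:79739013-79739236) held 127, 172 and 159 in flox and 115, 83.1 and 78.7 in AKO. All AKO libraries were lower (log2 fold change -0.73 ± 0.27, limma adjusted p 0.523). In inguinal fat the Pex11a promoter, shared with Wdr93, held 61.3, 57.8 and 50.8 in flox and 69.2, 86.8 and 71.6 in AKO, higher in every AKO aliquot (0.41 ± 0.15, limma adjusted p 0.269).

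Ehhadh, Acaa1a and Acaa1b, enzymes of the peroxisomal pathway, had 8 brown fat peaks between them, all overlapping. Ehhadh varied widely within a genotype, with an intron peak at 352, 162 and 135 in flox and 457, 98.5 and 118 in AKO. In inguinal fat the Ehhadh promoter was higher (210, 183 and 200 in flox, 241, 248 and 235 in AKO) and the Acaa1a promoter, which is also that of Myd88, lower (630, 581 and 601 in flox, 559, 532 and 513 in AKO) in every AKO aliquot. Acaa1a and Acaa1b are near-identical paralogs. Reads that fit both may be missing after the mapping quality cutoff, so the values of both genes are uncertain.

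Start sites were also examined together. Within 1000 bp of a start site lay 34 brown fat peaks of these genes, of which 11 were lower in AKO and 1 higher without overlap, against 766 lower and 1265 higher of all 12630 such peaks. Relative to the flox mean, their median was 1.09, 1.001 and 0.890 in the flox and 0.938, 0.653 and 0.846 in the AKO samples, while over all 12630 peaks it was 1.08, 0.979 and 0.934 in flox and 0.991, 0.878 and 1.04 in AKO. AKO replicate 2, the library with the fewest reads, was the lowest of 6 at 26 of the 34 peaks, against 47.2% of all such peaks. The median log2 fold change at these 34 peaks was -0.05 with the PC1 covariate and -0.32 without it, and for all such peaks 0.11 and -0.05.

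At the 32 inguinal start site peaks, the medians relative to flox were 1.02, 0.978 and 1.004 in flox and 1.03, 1.01 and 1.05 in AKO, with 3 peaks lower (9.38%) and 5 higher (15.6%) without overlap, against 9.61% and 9.46% of all 11880 such peaks. The range over the 6 libraries was narrow, and the genotypes overlapped.

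**Figure D4:**
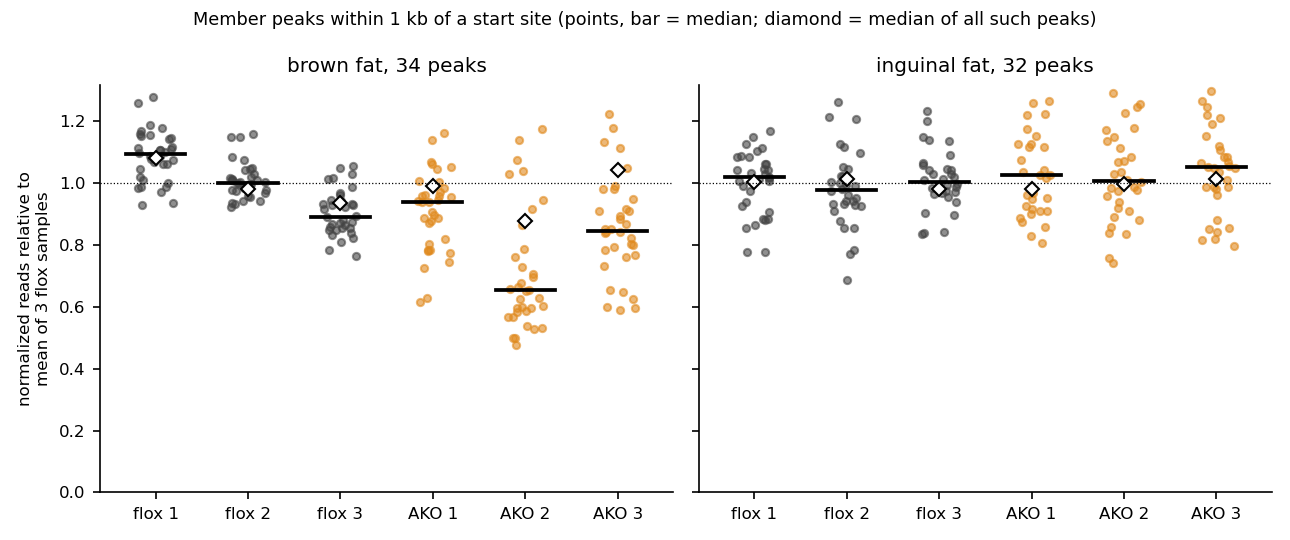
Normalized reads relative to the mean of the 3 flox samples (y axis) at each peak of the 34 genes within 1 kb of a start site, by sample (x axis), for brown fat (34 peaks) and inguinal fat (32 peaks). Bars are medians and diamonds the medians of all such peaks, and the brown fat AKO medians of 0.938, 0.653 and 0.846 lie below their diamonds, while the inguinal medians lie between 0.978 and 1.05.

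The depots were set side by side at 80 pairs of overlapping peaks (78 brown fat and 80 inguinal peaks, 29 genes). The fold changes of both depots were below 0 at 28 pairs and above 0 at 20, brown fat alone was below at 23, and inguinal fat alone at 9. Pairs were not counted over all overlapping peaks of the depots, so the counts of pairs given here have no background share. Groups were apart in both depots at 7 pairs. At 3 of them both were lower (Fabp4 upstream, Acot2 and Acadm promoters), at 1 both were higher (Fabp5 promoter), and at 3 brown fat was lower and inguinal fat higher (Acsl1, Hadha and Fabp3).

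The Acsl1 pair lies in an intron, where the brown fat peak (chr8:46503838-46504088) held 252, 211 and 185 in flox and 95.9, 160 and 156 in AKO. The inguinal peak over it (chr8:46503247-46504044) held 163, 162 and 166 in flox and 188, 211 and 180 in AKO. The log2 fold changes were -0.72 ± 0.32 and 0.23 ± 0.13, with limma adjusted p of 0.564 and 0.440. Without AKO replicate 1, the lowest library, the brown fat value was -0.22. These peaks overlap by 207 bp and are not the same interval, and since the depots were normalized, sequenced and replicated differently, the difference between them was not tested.

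**Figure D5:**
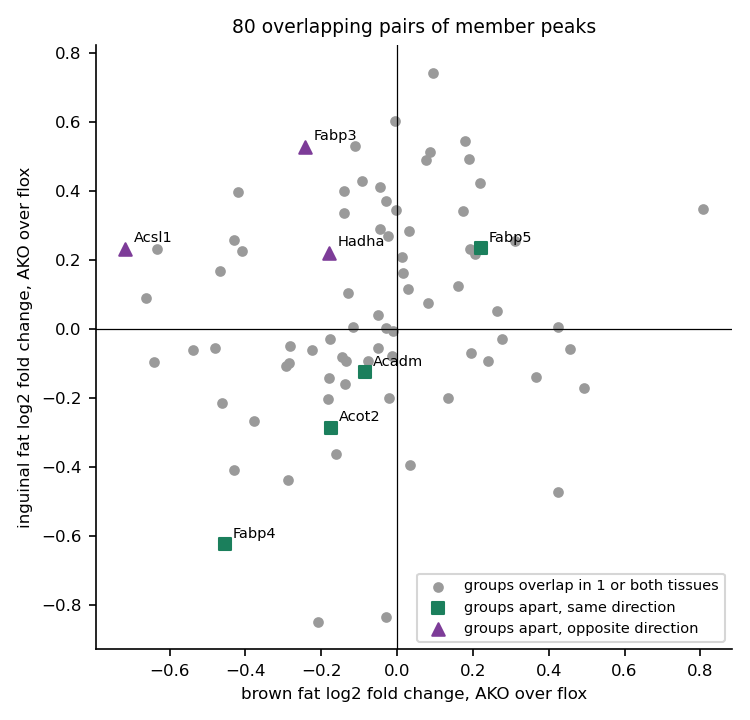
Log2 fold change (AKO over flox) in brown fat (x axis) against inguinal fat (y axis) for the 80 overlapping pairs of peaks. Squares mark the 4 pairs with groups apart in the same direction in both depots (Fabp4, Acot2, Acadm and Fabp5), triangles the 3 pairs apart in opposite directions (Acsl1, Hadha and Fabp3), and grey points the others.

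A further list of 40 genes of the same pathways (among them Slc25a20, Acat1, Echs1 and Abcd2) had 105 peaks in brown fat and 51 in inguinal fat. In brown fat 11 were lower (10.5%) and 12 higher (11.4%) without overlap, near the 8.84% and 8.77% of all peaks. Of the 105 peaks 50 were below 0, and the median was 0.02. In inguinal fat 2 were lower (3.92%) and 6 higher (11.8%), against 10.3% and 10.6% of all peaks, with a median of 0.02. No peak of this list was called by limma or DESeq2 in either depot, and edgeR called 1 inguinal peak higher, against 2.15% of all peaks. At an unadjusted limma p under 0.05, 6 brown fat peaks were lower and 4 higher, against 5.59% and 3.46% of all peaks. At the same threshold 2 inguinal peaks were lower and 3 higher, against 7.42% and 7.61%. The difference between the 2 lists was not tested, and both were chosen with earlier results of these data known.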

How the data were processed

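ATAC-seq was read in 12 samples, 3 flox and 3 AKO of each depot, each merging 2 transposase reactions. The authors aligned 38-bp reads to mm10 (BWA 0.7.17-r1188), kept mapping quality 30, called peaks with MACS2 2.1.1.20160309 in at least 2 replicates of a genotype, and deposited the signal per peak as reads divided by a DESeq2 1.20.0 size factor. The deposited fold changes and p-values of AKO against flox were not used. Whole reads were recovered for 100% of values (tolerance 0.01 reads).

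The main test was limma 3.58.1 (R 4.3.3) on log2(normalized reads + 1) over all peaks of a depot, with PC1 as a term in brown fat and none in inguinal fat, Benjamini-Hochberg adjustment and a threshold of 0.1. It was tested on simulated data. edgeR 4.0.16 and DESeq2 1.42.0 on the recovered reads, other pseudocounts and filters, no PC1 term, a replicate block and leaving out each library were alternatives. Peak genes are those deposited, and positions were annotated with GENCODE M21. By a written rule, values were given for the brown fat peak with the smallest limma p of each role, for up to 5 peaks per depot and direction with the smallest unadjusted p under 0.05 and groups apart, for the start sites of Cpt1b, Acaa2, Acadm and Acadl, and for overlapping peaks apart in opposite directions; the other peaks were named after their values were seen. The members and lists were chosen with earlier results of these data known. Where nothing says that samples are separate animals, as in inguinal fat, p-values measure technical spread. Marker lists covered brown adipocytes, adipocytes, skeletal muscle, endothelium, macrophages, lymphocytes, fibroblasts and epithelium.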

Additional observations from a re-analysis of the deposited data

Results flagged for a closer look

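At 3 pairs of overlapping peaks every AKO sample lay below every flox sample in brown fat and above in inguinal fat. The log2 fold changes were -0.72 and 0.23 at the Acsl1 intron peak, -0.18 and 0.22 at the Hadha intron peak, and -0.24 and 0.53 upstream of Fabp3. The difference between depots was not tested. Such pairs were not counted over all overlapping peaks, so whether 3 exceeds the background share was not tested. Without AKO replicate 1 the brown fat value at Acsl1 was -0.22.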

How the results depend on the processing

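limma called no peak of the 34 genes under any limma alternative run. DESeq2 called 2 brown fat peaks lower and 1 higher, edgeR 1 lower, and DESeq2 without PC1, chosen after seeing the data, 10 lower and 1 higher (0.517% and 0.512% of all peaks). In inguinal fat DESeq2 called 1 lower and edgeR 2 lower and 2 higher, where edgeR called 2.52% of all peaks lower and 2.15% higher. With PC1, which there separates the genotypes, the inguinal median was -0.20, and the sign turned for Acaa2 (0.31), Acadl (-0.80), Fabp4 5.6 kb upstream (0.38), Acadm (0.36), Cd36 (2.74), Hadha (-0.62) and Acsl1 (-0.32 and -0.33). Without PC1 in brown fat the far upstream Acadl peak was 0.11 (DESeq2 0.15) and the Hadh intron peak 0.050 (DESeq2 0.057). The cause was not tested.

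Leaving out each library in turn, chosen after seeing the data for the counts, gave 40 to 68 brown fat peaks lower and 11 to 17 higher without overlap, and 10 to 21 inguinal peaks lower and 20 to 26 higher. The extremes were without AKO replicate 1 (68) and flox replicate 3 (17) of brown fat and flox replicate 2 (21) of inguinal fat. Fewer libraries overlap less often: the share of all peaks was then 12.3% to 16.9% lower and 11.4% to 19.8% higher in brown fat, and 14.2% to 18.2% lower and 14.2% to 17.6% higher in inguinal fat. Without flox replicate 2, 21 inguinal peaks were lower and 24 higher. The median ranged from -0.18 to -0.06 in brown fat and from -0.02 to 0.09 in inguinal fat. In brown fat Acaa2 ranged from -0.22 to 0.0046, Acadm from -0.16 to 0.093 and the Hadha intron from -0.26 to 0.071 (each highest without flox replicate 3), the Acsl1 intron peak of the opposite pair from -1.09 to -0.22, and inguinal Acaa2 from -0.063 to 0.024. With a replicate block the Etfa peak was 0.07 and the medians were -0.12 in brown and 0.04 in inguinal fat, with 0 calls. Replicate numbers did not pair the samples (correlations 0.494, 0.0632 and -0.236 in brown fat). Overlap of at least 50% of both peaks left 2 of the 3 opposite pairs. Among the brown fat libraries depth was lowest in AKO replicate 2, with 6336670 reads in peaks. The inguinal libraries held 4066720 to 6691161. Low depth limits precision at weak peaks in both depots.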
